A study of Mus musculus with 12 samples.

Results

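The aryl hydrocarbon receptor (AhR) and its closest partners are 4 of the 23284 genes listed in each of the deposited tables of mouse natural killer T (NKT) cells. They were chosen by gene symbol, with the lower thymus FPKM of Ahr in cKO cells in view: Ahr is the receptor, Arnt its dimer partner, Ahrr its repressor and Tiparp a target gene. NKT cells are T cells whose receptors bind lipid antigens on CD1d. The 12 libraries form 4 groups of 3: DN-origin (cKO) and DP-origin (YFP+) cells of the thymus, and cKO and YFP+ cells of the liver. The cKO cells came from C57BL/6 mice in which the E8III-Cre transgene deletes a floxed Rag2 at the double-positive (DP) thymocyte stage, and their NKT cells are taken to arise from double-negative (DN) cells. The YFP+ cells came from C57BL/6 mice in which the same Cre opens a loxP-STOP-loxP reporter at Rosa26, which marks cells that passed through the DP stage. Both kinds of mouse carry E8III-Cre and only the cKO mice lose Rag2, so origin and mouse cannot be told apart. The sort kept live cells positive for CD1d dimer and TCR beta and negative for CD45R, CD4 and CD8. For the liver, the titles and column headers name one mouse and the description field the other. Groups follow the titles here; should the descriptions be right, all liver differences change sign.

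The values are FPKM (fragments scaled to transcript length and to the mapped total), normalized in a separate table for each tissue. The sum of FPKM per library was 187828 to 194655 in thymus cKO and 198790 to 212688 in thymus YFP+, and 450429 to 465304 in liver cKO and 509267 to 558042 in liver YFP+. Read totals, and with them absolute depth, are unknown. Rag2 was listed at 0 in all 3 liver cKO libraries and reached 1.365, 0.985 and 1.075 FPKM in the YFP+ ones. In the thymus it reached 0.015 FPKM in cKO replicate 2 and was listed at 0 in the other libraries of both groups, so it does not tell the thymus groups apart. The T cell genes Cd3d, Cd3e and Cd3g were above 100 FPKM in every library. Zbtb16, which encodes the NKT cell factor PLZF, was at 3.76 ± 0.565 FPKM in cKO and 12.3 ± 1.26 in YFP+ thymus libraries, and at 9.86 ± 0.949 in cKO and 11.4 ± 2.31 in YFP+ liver libraries (mean ± SD, n = 3 per group, as throughout). Thymus cKO replicate 1 stood apart: Hspa1a, a heat shock gene, was at 90.7 FPKM there, 743 and 751 in cKO replicates 2 and 3 and 4.79 to 6.18 in YFP+, and the globin gene Hbb-b1 was at 40.8 FPKM there, 0.034 and 5.51 in cKO replicates 2 and 3 and at most 0.322 in YFP+. Whether replicates are separate animals is not stated, so the p-values cover only a spread between samples that may be technical.

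AhR is a transcription factor of the bHLH-PAS family that waits in the cytosol, bound to HSP90 and other chaperones. When a ligand such as a dioxin or a tryptophan derivative binds, AhR enters the nucleus, pairs with ARNT and binds xenobiotic response elements, whose core is GCGTG. AHRR competes for ARNT and for these elements, and TIPARP (PARP7), a mono-ADP-ribosyltransferase, acts on AhR to curb its activity. Both are induced by the receptor and feed back on it. In lymphocytes AhR is known for its part in IL-17- and IL-22-producing T cells and innate lymphoid cells.

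The stretches before the starts of the 3 members with a RefSeq promoter entry are shown because they carry this core. Each is the 250 bases before the RefSeq gene start in build GRCm38.p6 (the FPKM were made on mm9), read 5′ to 3′ on the gene's strand, with GCGTG or its reverse complement CACGC in capitals.
Ahrr, chr13:74292332-74292581, minus strand: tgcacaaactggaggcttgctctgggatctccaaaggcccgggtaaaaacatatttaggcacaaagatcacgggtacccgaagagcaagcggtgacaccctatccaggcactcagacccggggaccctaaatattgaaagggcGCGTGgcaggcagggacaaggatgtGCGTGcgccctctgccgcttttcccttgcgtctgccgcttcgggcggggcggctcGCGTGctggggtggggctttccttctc
Tiparp, chr3:65528197-65528446, plus strand: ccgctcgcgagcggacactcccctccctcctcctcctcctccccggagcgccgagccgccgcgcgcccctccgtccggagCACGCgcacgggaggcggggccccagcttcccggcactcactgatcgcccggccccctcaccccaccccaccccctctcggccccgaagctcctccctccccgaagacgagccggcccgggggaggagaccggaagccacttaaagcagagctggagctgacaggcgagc
Arnt, chr3:95434140-95434389, plus strand: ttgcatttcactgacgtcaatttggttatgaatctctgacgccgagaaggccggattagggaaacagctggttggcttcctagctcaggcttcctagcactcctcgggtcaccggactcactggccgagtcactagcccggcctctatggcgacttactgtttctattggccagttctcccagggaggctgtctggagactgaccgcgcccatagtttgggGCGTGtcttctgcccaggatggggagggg

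Ahrr held the core 3 times, with its first letter 107, 82 and 27 bases before the start. Tiparp held it once, as CACGC 170 bases before the start, and Arnt once, 29 bases before it. Of 32851 windows of the same length in the table, 28.2% held at least 1 core on either strand and 2.77% held 3 or more. The same letters are also a form of the motif bound by HIF1A with ARNT, so a match does not tell these dimers apart, and it is a description of the sequence only.

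Of the 4 genes, the receptor itself differed most between the thymus groups. In the thymus Ahr was at 0.700, 1.081 and 1.536 FPKM in cKO libraries 1, 2 and 3, and at 12.038, 10.644 and 12.304 FPKM in YFP+ libraries. Every cKO library was far below every YFP+ library. The means were 1.11 ± 0.419 FPKM in cKO and 11.7 ± 0.892 FPKM in YFP+, so the YFP+ mean was 10.5 times the cKO mean. On the log2(FPKM + 1) scale, which understates the change of low genes, the difference of cKO minus YFP+ was -2.60. The median tested gene of the thymus lay at -0.16 and that of the liver at -0.11 on this scale, and log2 differences below are relative to that median gene, which makes -2.44 for Ahr (-2.27 without cKO replicate 1). The limma p-values given beside them below belong to the unshifted difference, not to the difference relative to the median gene. The thymic difference of Ahr was known when the genes were chosen, so all 4 are described in the thymus without a test. In bulk samples, fewer cells that carry a transcript and less of it per cell cannot be told apart.

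In the liver Ahr was lower in cKO as well, by less. It was at 0.787, 0.736 and 0.855 FPKM in cKO and at 1.323, 1.844 and 1.395 FPKM in YFP+ libraries. The groups did not overlap, at means of 0.793 ± 0.0597 in cKO and 1.52 ± 0.282 FPKM in YFP+. With a cKO mean under 1 FPKM, Ahr passed the filter for testing in the liver only through its YFP+ values. The log2 difference relative to the median gene was -0.38 (SE 0.14, and -0.72 with a pseudocount of 0.1). The unshifted difference was -0.486, and its adjusted p was 0.0336 in limma over 9591 tested genes. That call was lost with median-ratio scaling (adjusted p = 0.0556), with no filter on low values (0.062), without cKO replicate 1, 2 or 3 (0.0859, 0.0928 and 0.0722) and without YFP+ replicate 2 or 3 (0.113 and 0.0512), and adjusted p ranged from 0.00578 to 0.113 over all alternatives. Whether the liver values took part in choosing the genes is not stated, so the liver tests are not independent support. The difference between the tissues was not tested, because it rests on the thymus values.

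Ordered by mean FPKM, Ahr was highest in thymus YFP+, followed by liver YFP+, thymus cKO and liver cKO. The range of thymus cKO overlapped that of liver YFP+ and that of liver cKO, so only thymus YFP+ stood clear of its neighbour. This order spans tables that were normalized separately.

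Arnt, the dimer partner, varied far less than the receptor. In the thymus it was at 2.405, 2.228 and 2.087 FPKM in cKO and at 3.339, 3.159 and 2.892 FPKM in YFP+, with no overlap and a log2 difference of -0.19 (-0.20 without cKO replicate 1). In the liver it was at 1.895, 1.697 and 1.827 FPKM in cKO and at 1.296, 1.818 and 1.854 FPKM in YFP+, and the groups overlapped. The liver log2 difference was 0.19, with a 95% interval of -0.13 to 0.52 and an adjusted p of 0.687 in limma. By mean, Arnt was highest in thymus YFP+, followed by thymus cKO, liver cKO and liver YFP+, and the ranges of the liver groups overlapped. As for Ahr, this order spans tables that were normalized separately.

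Ahrr, the repressor, was close to 0 in all groups. In the thymus it was at 0.021, 0.032 and 0.032 FPKM in cKO and at 0.009, 0.111 and 0.056 FPKM in YFP+. In the liver it was at 0.083, 0.015 and 0 FPKM in cKO and at 0, 0.054 and 0 FPKM in YFP+. The groups overlapped in both tissues, no fold is given at this level, and the gene did not reach the mean of 1 FPKM at which genes were tested. A listed 0 can be a failed estimate.

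Tiparp, the target gene, had opposite directions in the tissues by mean. In the liver it was at 0.720, 0.484 and 0.636 FPKM in cKO and at 2.253, 2.201 and 2.941 FPKM in YFP+. All liver cKO libraries lay below all liver YFP+ libraries, at means of 0.613 ± 0.120 and 2.47 ± 0.413 FPKM for cKO and YFP+. The cKO mean was under 1 FPKM, so Tiparp passed the filter for testing only through its YFP+ values. The log2 difference was -0.99 (SE 0.15; -1.72 with a pseudocount of 0.1), with an adjusted p of 0.0016 in limma, and the call held in all 12 alternatives run on the liver (adjusted p 0.000478 to 0.00934). In the thymus Tiparp was at 3.548, 5.614 and 5.744 FPKM in cKO and at 3.588, 2.994 and 2.223 FPKM in YFP+. There cKO replicates 2 and 3 were above every YFP+ library, while cKO replicate 1 lay just below YFP+ replicate 1, so the groups overlapped. The thymus log2 difference was 0.76 (0.97 without cKO replicate 1), given as a description. By mean, Tiparp was highest in thymus cKO, followed by thymus YFP+, liver YFP+ and liver cKO. The ranges of thymus cKO and thymus YFP+, and of thymus YFP+ and liver YFP+, overlapped, and liver cKO stood clear below. Here too the order spans tables that were normalized separately, so it does not show a tissue difference.

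**Figure D1:**
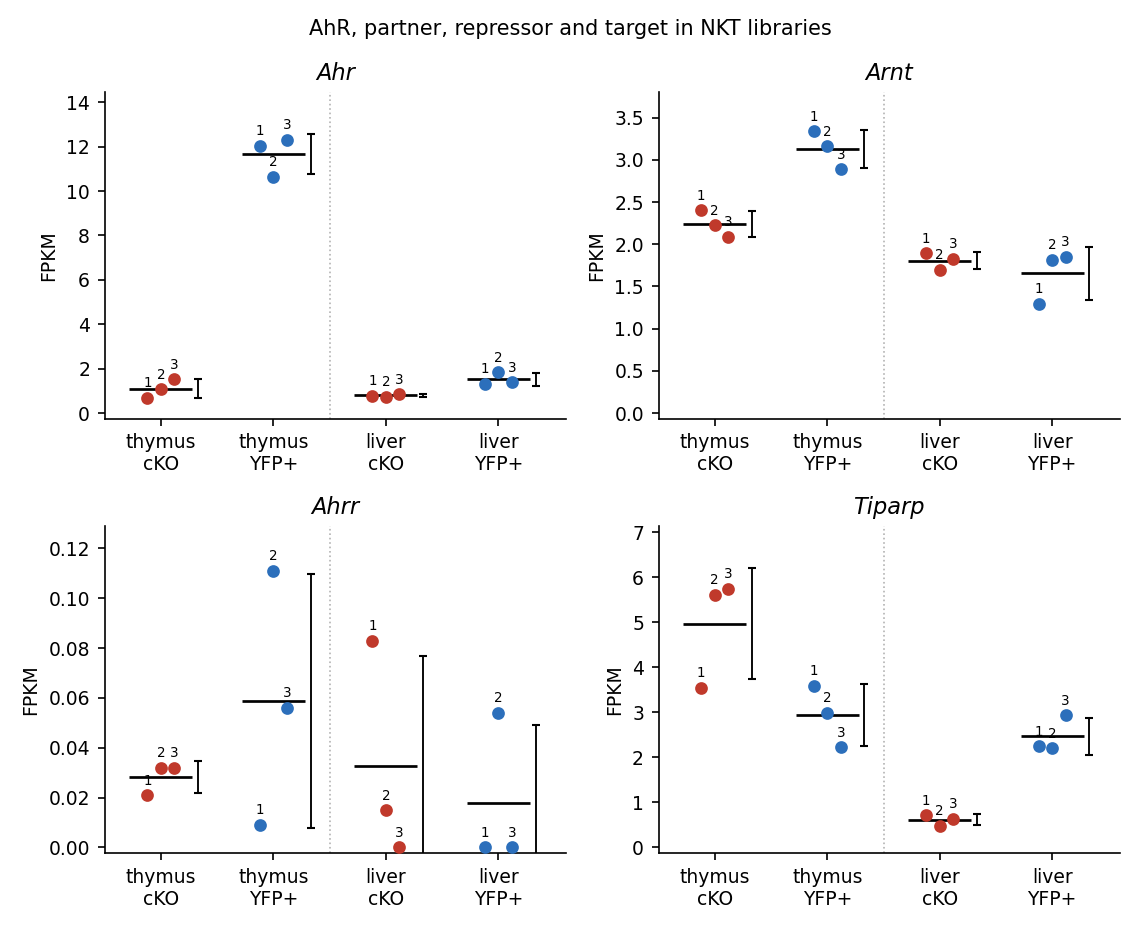
FPKM (vertical axis) of Ahr, Arnt, Ahrr and Tiparp in each library, by tissue and origin; points are libraries with their replicate number, horizontal bars are means and error bars are 1 SD (n = 3; cut off at 0 for Ahrr). Ahr is at 10.644 to 12.304 FPKM in thymus YFP+ and at no more than 1.844 FPKM elsewhere, and Tiparp is lowest in liver cKO, at 0.484 to 0.720 FPKM.

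Across the 4 genes, 3 reached the tested level in each tissue. Ahrr was not tested, and its groups overlapped in both tissues. In each tissue 2 of the 3 tested did not overlap and were lower in cKO: Ahr and Arnt in the thymus, Ahr and Tiparp in the liver. Of all tested genes, 37.6% did so in the thymus and 29.6% in the liver. The thymus count includes Ahr, whose difference there was known when the genes were chosen. None of the 4 was higher in cKO without overlap, against 5.34% of tested genes in the thymus and 14.7% in the liver. In the liver 2 of the 3 tested were called lower in cKO and 0 higher. The 2, Ahr and Tiparp, passed the filter for testing only through the YFP+ group, where they are higher. The limma fit called 19.7% of all tested liver genes lower and 7.49% higher, 27.2% in all.

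Ratios within a library do not depend on how that library was scaled. Ahr per Arnt was 0.291, 0.485 and 0.736 in thymus cKO and 3.61, 3.37 and 4.25 in thymus YFP+ (ratios of FPKM). In the liver it was 0.415, 0.434 and 0.468 in cKO and 1.02, 1.01 and 0.752 in YFP+. Since Ahr was chosen for its thymus difference, both thymus ratios restate that choice and their directions are a description. Receptor RNA exceeded partner RNA in all 3 thymus YFP+ libraries, was close to it in liver YFP+, and was below it in every cKO library. Tiparp per Ahr was 5.07, 5.19 and 3.74 in thymus cKO and 0.298, 0.281 and 0.181 in thymus YFP+. It was 0.915, 0.658 and 0.744 in liver cKO and 1.70, 1.19 and 2.11 in liver YFP+. In the liver, both ratios were lower in every cKO library than in any YFP+ library.

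**Figure D2:**
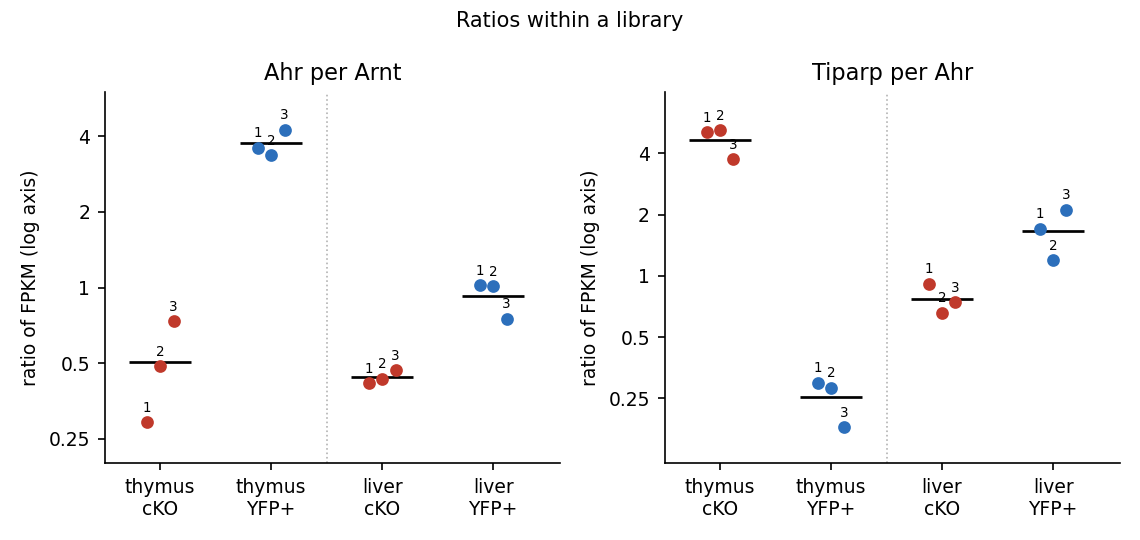
Ratio of FPKM within each library on a log axis, Ahr per Arnt on the left and Tiparp per Ahr on the right; points are libraries with their replicate number and bars are means. Ahr per Arnt is highest in thymus YFP+ (3.37 to 4.25), and Tiparp per Ahr is highest in thymus cKO (3.74 to 5.19) and lowest in thymus YFP+ (0.181 to 0.298).

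Another gene had the directions of Tiparp in both tissues, though not those of Ahr or Arnt in the thymus. Fosb, a subunit of AP-1 induced early after stimulation, was picked after its values were seen. It was at 3.722, 13.687 and 12.587 FPKM in thymus cKO and at 0.817, 1.108 and 0.428 FPKM in thymus YFP+. In the liver it was at 3.469, 4.818 and 3.994 FPKM in cKO, against 12.428, 17.953 and 14.858 FPKM in YFP+. Like Tiparp, Fosb was higher in cKO by mean in the thymus and lower in the liver, and its lowest thymus cKO library was also replicate 1. Its part in the Tiparp result was not tested.

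The liver YFP+ libraries, in which Ahr and Tiparp were higher, also had higher summed levels of several marker lists of other cell types, while 2 lists had 3 of 5 tested markers higher in cKO. The summed level of 4 B cell markers was 1.97 to 3.34 FPKM in liver cKO and 9.95 to 10.9 in liver YFP+, with 2 of 2 tested markers lower in cKO. The sum of 8 myeloid and Kupffer cell markers was 20.7 to 22.8 FPKM in cKO and 59.5 to 83.8 in YFP+. Most of it was Lyz1 and Lyz2, the 2 of 4 tested that were lower. The groups of Cd68, Csf1r, Fcgr3 and Emr1 overlapped, and Itgam, below the tested level, was lower in cKO without overlap. The Kupffer cell gene Clec4f was at 0.056, 0.025 and 0 FPKM in cKO and at 0 in all YFP+ libraries. The sum of 8 DP thymocyte markers was 23.1 to 24.5 FPKM in cKO and 78.6 to 87.9 in YFP+ (5 of 5 tested lower). The sum of 5 erythroid markers was 9.83 to 14.9 FPKM in cKO and 641 to 742 in YFP+ (4 of 4 tested lower). The sum of 5 hepatocyte markers, most of it Trf, was 10.6 to 14.5 FPKM in cKO and 36.2 to 40.8 in YFP+ (1 of 1 tested lower). Ttr and Fgb were listed at 0 in all liver libraries. Alb was at 0.058, 0.053 and 0.059 FPKM in cKO, and Apoa1 at 0, 1.204 and 0.064. Both were listed at 0 in all liver YFP+ libraries, the opposite direction to Trf. In the other direction, the sum of 8 markers of gamma-delta and IL-17-type T cells was 28.1 to 31.9 FPKM in cKO and 16.8 to 20.6 in YFP+ (3 of 5 tested higher and 1 lower). Among them Sox13 was at 8.12 ± 1.25 FPKM in cKO and 0.793 ± 0.267 in YFP+, and Cd163l1 at 8.40 ± 1.78 in cKO and 1.98 ± 0.489 in YFP+. The 1 lower was Blk, at 7.142, 6.065 and 5.392 FPKM in cKO and 10.755, 11.1 and 12.336 in YFP+. Il17a and Il17f, below the tested level, were also lower in cKO without overlap. Il17a was listed at 0 in all liver cKO libraries and at 0.27, 0.297 and 0.397 FPKM in YFP+. Il17f was at 0, 0.061 and 0.207 FPKM in cKO and at 0.268, 0.221 and 0.394 in YFP+. The sum of 6 NK cell and ILC1 markers was 462 to 478 FPKM in cKO and 407 to 512 in YFP+ (3 of 5 tested higher and 1 lower). The part of these cells in the liver results was not tested.

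In the thymus several marker lists also differed between the groups. The summed level of 8 markers of gamma-delta and IL-17-type T cells was 14.1 to 16.7 FPKM in cKO and 24.8 to 34.1 in YFP+, with 2 of 5 tested markers lower and 0 higher in cKO and a median log2 difference of -0.02. The 2 were Il23r, described below, and Blk, a Src-family kinase gene, at 2.32 ± 0.697 FPKM in cKO and 12.01 ± 2.96 in YFP+. Il17a and Il17f did not exceed 0.251 FPKM in any thymus library. The sum of 6 markers of group 2 and group 3 innate lymphoid cells was 0.475 to 0.767 FPKM in cKO and 2.11 to 3.695 in YFP+. Most of it was Cd4, which is also counted among the DP thymocyte markers below. The defining genes Il1rl1, Il5 and Kit did not exceed 0.038 FPKM in any thymus library. The B cell sum was 1.11 to 1.38 FPKM in thymus cKO and 1.497 to 1.99 in thymus YFP+. The sum of 8 DP thymocyte markers was 6.25 to 8.11 FPKM in thymus cKO and 11.9 to 16.7 in thymus YFP+ (2 of 2 tested lower). The 2 were Cd1d1, at 6.03 ± 0.818 FPKM in cKO and 10.97 ± 1.67 in YFP+, and Cd4, at 0.429 ± 0.194 and 2.88 ± 0.891. Rag1, at no more than 0.081 FPKM, was higher in cKO without overlap. Dntt and Ptcra were higher in cKO by mean and Cd8a and Cd8b1 lower, all with overlap and at no more than 0.513 FPKM. Trf was at 4.80 ± 0.968 FPKM in cKO and 27.6 ± 2.37 in YFP+. The sum of 6 NK cell and ILC1 markers was higher in cKO, at 210 to 245 FPKM in cKO and 174.1 to 177 in YFP+ (3 of 4 tested higher and 1 lower). The 3 were Klre1, Klri2 and Tyrobp, and Gzma was lower. Eomes did not exceed 0.047 FPKM in any thymus library. Ncr1 was at 0.389 ± 0.107 FPKM in cKO and 0.337 ± 0.173 in YFP+, and its groups overlapped. The part of these cells in the Ahr difference was not tested.

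The rest of the pathway was read from 7 lists of 84 genes chosen with earlier results of these data known. Of 39 tested in the thymus, 1 was higher and 9 lower in cKO (4 and 5 with median-ratio scaling). The limma fit called 2.64% of all 9097 tested thymus genes higher and 13.1% lower, 15.7% in all. Of 39 tested in the liver, 4 were higher and 4 lower (6 and 1 with median-ratio scaling). Over all 9591 tested liver genes the fit called 7.49% higher and 19.7% lower, 27.2% in all, against 20.5% of the listed genes tested there. The counts depend on single libraries: when 1 was left out, 5 to 15 genes were called in the thymus (15 when it was cKO replicate 1; 5 or 6 when it was cKO replicate 2 or any YFP+ replicate) and 5 to 9 in the liver (5 when it was any cKO replicate or YFP+ replicate 2).

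Of 15 listed genes linked to AhR in lymphocytes, 6 were tested in the thymus, 3 were lower in cKO and 0 higher, and the list's median log2 difference was -0.43 relative to the median gene. Il23r, which encodes the IL-23-specific receptor chain, was at 0.570, 0.762 and 0.632 FPKM in cKO and at 3.775, 2.901 and 4.891 in YFP+ (log2 difference -1.37, adjusted p = 0.000713). It passed the filter for testing only through YFP+. Ikzf3, which encodes Aiolos, a zinc finger protein reported downstream of AhR in Th17 cells, was at 16.9 ± 1.76 FPKM in cKO and 38.97 ± 3.99 in YFP+ (-0.99, adjusted p = 0.000409). Maf, a transcription factor that pairs with AhR in IL-10-producing T cells, was at 4.80 ± 0.976 FPKM in cKO and 9.57 ± 0.690 in YFP+ (-0.71, adjusted p = 0.00519). These 3 calls held in all 12 alternatives run in the thymus. With no filter on low values, 1 gene of the list was called higher and 4 lower in the thymus.

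In the liver limma called 0 of 6 tested genes of this list in either direction (0 at an unadjusted p under 0.05, 1 lower with array weights or without YFP+ replicate 1, and 1 higher and 3 lower with no filter), with a median of 0.03. Maf was at 20.6 ± 0.934 FPKM in cKO and 19.2 ± 2.24 in YFP+ (0.21, 95% interval -0.04 to 0.45, adjusted p = 0.535). Il22, a cytokine gene that AhR is known to drive, stayed below the tested level. It was listed at 0 in all 3 liver cKO libraries and at 0.615, 2.107 and 2.079 FPKM in liver YFP+. With no filter on low values its adjusted p was 0.028 in limma. In the thymus Il22 was at 0.067, 0.089 and 0.068 FPKM in cKO and at 0.199, 0.148 and 0.023 in YFP+.

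Gpr15, an AhR-dependent homing receptor of T cells, was also below the tested level and is named because its values stood out. It was at 1.656, 0.855 and 0.912 FPKM in thymus cKO and at 0.109, 0.203 and 0 in thymus YFP+. In the liver it was at 1.477, 0.947 and 0.821 FPKM in cKO and at 0.047, 0.103 and 0.138 in YFP+. Every cKO library of a tissue was above every YFP+ library, the opposite order to Ahr. With no filter on low values its adjusted p in limma was 0.0334 in the thymus and 0.011 in the liver. Il1r1, of the same list and also below the tested level, went the same way as Ahr in the thymus. It was at 0.070, 0.073 and 0.099 FPKM in thymus cKO and at 0.578, 0.645 and 1.041 in thymus YFP+. Its adjusted p there was 0.0254 in limma with no filter. In the liver the groups of Il1r1 overlapped, at 0.151 ± 0.141 FPKM in cKO and 0.148 ± 0.0331 in YFP+.

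Levels of the classical xenobiotic targets were low. None of 10 listed genes reached 1 FPKM in any library, and the summed level of the list was 0.992 to 1.86 FPKM in thymus cKO and 0.35 to 0.958 in thymus YFP+, and 0.731 to 1.35 in liver cKO and 0.482 to 0.912 in liver YFP+. Cyp1a1, the cytochrome P450 used as the standard readout of AhR, did not exceed 0.026 FPKM in any library. Cyp1b1, its relative, was listed at 0 in all liver libraries and at no more than 0.054 FPKM in the thymus. Nqo1, a quinone reductase that NRF2 also drives, had liver values of 0.380, 0.859 and 0.626 FPKM in cKO, against 0.094, 0.155 and 0.138 FPKM in YFP+. The liver groups of Nqo1 did not overlap, and with no filter on low values its adjusted p was 0.0373 in limma.

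Of the proteins that hold AhR in the cytosol, 3 of 4 listed genes were tested. In the thymus 1 was higher in cKO: Hsp90aa1, the inducible HSP90, at 41.537, 82.163 and 75.323 FPKM in cKO and 33.417, 35.318 and 31.141 in YFP+ (1.08, adjusted p = 0.0326). Here cKO replicate 1 was the lowest of its group, as for Tiparp. The Hsp90aa1 call was lost without cKO replicate 2 or 3 or any YFP+ replicate and with no filter (adjusted p up to 0.118; 7.79e-05 at the lowest, over all alternatives). In the liver Hsp90aa1 was lower, at 72.7 ± 1.59 FPKM in cKO and 89.6 ± 3.46 in YFP+ (-0.19, adjusted p = 0.0171). That call was lost with median-ratio scaling, without any cKO replicate and without YFP+ replicate 2 (adjusted p 0.00536 to 0.16 over all alternatives). Hsp90ab1, the constitutive HSP90, was at 246 ± 63.3 FPKM in cKO and 186 ± 10.6 in YFP+ in the thymus, and at 488 ± 2.44 in cKO and 502 ± 23.8 in YFP+ in the liver, and passed in neither tissue (adjusted p = 0.161 and 0.697).

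Among the other bHLH-PAS proteins, which include further partners of ARNT, 6 of 16 were tested in the thymus, 4 were lower in cKO and 0 higher. Hif1a, the oxygen-regulated partner of ARNT, was at 8.193, 7.662 and 7.915 FPKM in cKO and at 12.946, 11.699 and 13.763 in YFP+ (-0.46, adjusted p = 0.00336). Arntl, which encodes the clock protein BMAL1, was at 1.195 ± 0.337 FPKM in cKO and 3.11 ± 0.467 in YFP+ (-0.75, adjusted p = 0.00593). The coactivators Ncoa3 and Ncoa2 passed narrowly (-0.19 and -0.18, adjusted p = 0.0364 and 0.0435 in limma). Their 95% intervals relative to the median gene, -0.40 to 0.02 and -0.39 to 0.04, included 0. Both calls were lost with median-ratio scaling, with no filter and without cKO replicate 2 or any YFP+ replicate, at adjusted p of up to 0.192 and 0.21. Ncoa2 was also lost at a mean of at least 0.1 FPKM and without cKO replicate 1 or 3. In the liver 5 were tested, and limma called 0 in either direction (1 higher at an unadjusted p under 0.05, and 1 higher with median-ratio scaling). Hif1a was at 1.81 ± 0.167 FPKM in liver cKO and 2.23 ± 0.559 in liver YFP+ (adjusted p = 0.417).

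Of the HIF1A-ARNT target genes, 0 of 10 tested passed in limma in the thymus (2 higher and 1 lower at an unadjusted p under 0.05, and 2 higher with median-ratio scaling), and the median was 0.08. In the liver 1 of 10 was higher and 2 were lower. Eno1, enolase 1, was at 520 ± 14.4 FPKM in cKO and 443 ± 5.59 in YFP+ (0.34, adjusted p = 0.0276). This call was lost without any cKO replicate and without YFP+ replicate 2 (adjusted p up to 0.115). Pgk1, phosphoglycerate kinase, was at 68.6 ± 2.96 FPKM in cKO and 90.6 ± 5.83 in YFP+ (-0.29, adjusted p = 0.00913), and Ldha, lactate dehydrogenase A, at 121 ± 2.51 in cKO and 153 ± 6.24 in YFP+ (-0.22, adjusted p = 0.0101). Both were lost with median-ratio scaling, at adjusted p of 0.0665 and 0.103.

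Of the other PARP genes, relatives of Tiparp, in the thymus 0 of 12 were higher in cKO and 2 lower: Parp1, the main DNA-damage PARP, at 11.1 ± 0.656 FPKM in cKO and 15.1 ± 1.005 in YFP+ (-0.25, adjusted p = 0.0181), and Parp2, its relative, at 12.3 ± 0.733 in cKO and 15.7 ± 0.673 in YFP+ (-0.16, adjusted p = 0.0332). Both calls were lost with median-ratio scaling, and the count ran from 0 to 5 with single libraries removed (5 without cKO replicate 1, 0 without cKO replicate 2 or YFP+ replicate 1 or 3). The 95% interval of Parp2 relative to the median gene, -0.34 to 0.02, included 0. In the liver 2 were higher and 1 lower in cKO. Parp10, a mono-ADP-ribosyltransferase like TIPARP, was at 8.521, 9.335 and 10.287 FPKM in cKO and at 4.672, 4.537 and 5.193 in YFP+ (0.95, adjusted p = 0.00196), the opposite direction to Tiparp. Parp3 was at 13.1 ± 0.460 FPKM in cKO and 10.3 ± 0.341 in YFP+ (0.43, adjusted p = 0.0332), a call lost whenever any of the 6 libraries was left out (adjusted p up to 0.111). Parp2 was at 21.9 ± 1.07 FPKM in cKO and 30.9 ± 1.66 in YFP+ (-0.37, adjusted p = 0.00607).

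Genes for making and taking up tryptophan ligands were mostly below the tested level: 9 of 11 stayed under 1 FPKM in every thymus library, and 8 of 11 in every liver library. In the thymus limma called 0 of the 2 tested (1 higher at an unadjusted p under 0.05, and 1 higher with median-ratio scaling). Slc7a5, the transporter that brings tryptophan and kynurenine into T cells, was at 7.41 ± 0.113 FPKM in cKO and 6.06 ± 0.526 in YFP+ in the thymus (0.42, adjusted p = 0.0759), and at 2.88 ± 0.337 in cKO and 3.02 ± 0.599 in YFP+ in the liver (0.06, adjusted p = 0.846). Slc3a2, its heavy-chain partner, was higher in liver cKO, at 107.061, 97.565 and 101.061 FPKM in cKO and 69.432, 69.456 and 83.164 in YFP+ (0.57, adjusted p = 0.0087). In the thymus Slc3a2 was at 12.8 ± 0.740 FPKM in cKO and 12.6 ± 0.794 in YFP+ (adjusted p = 0.872).

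**Figure D3:**
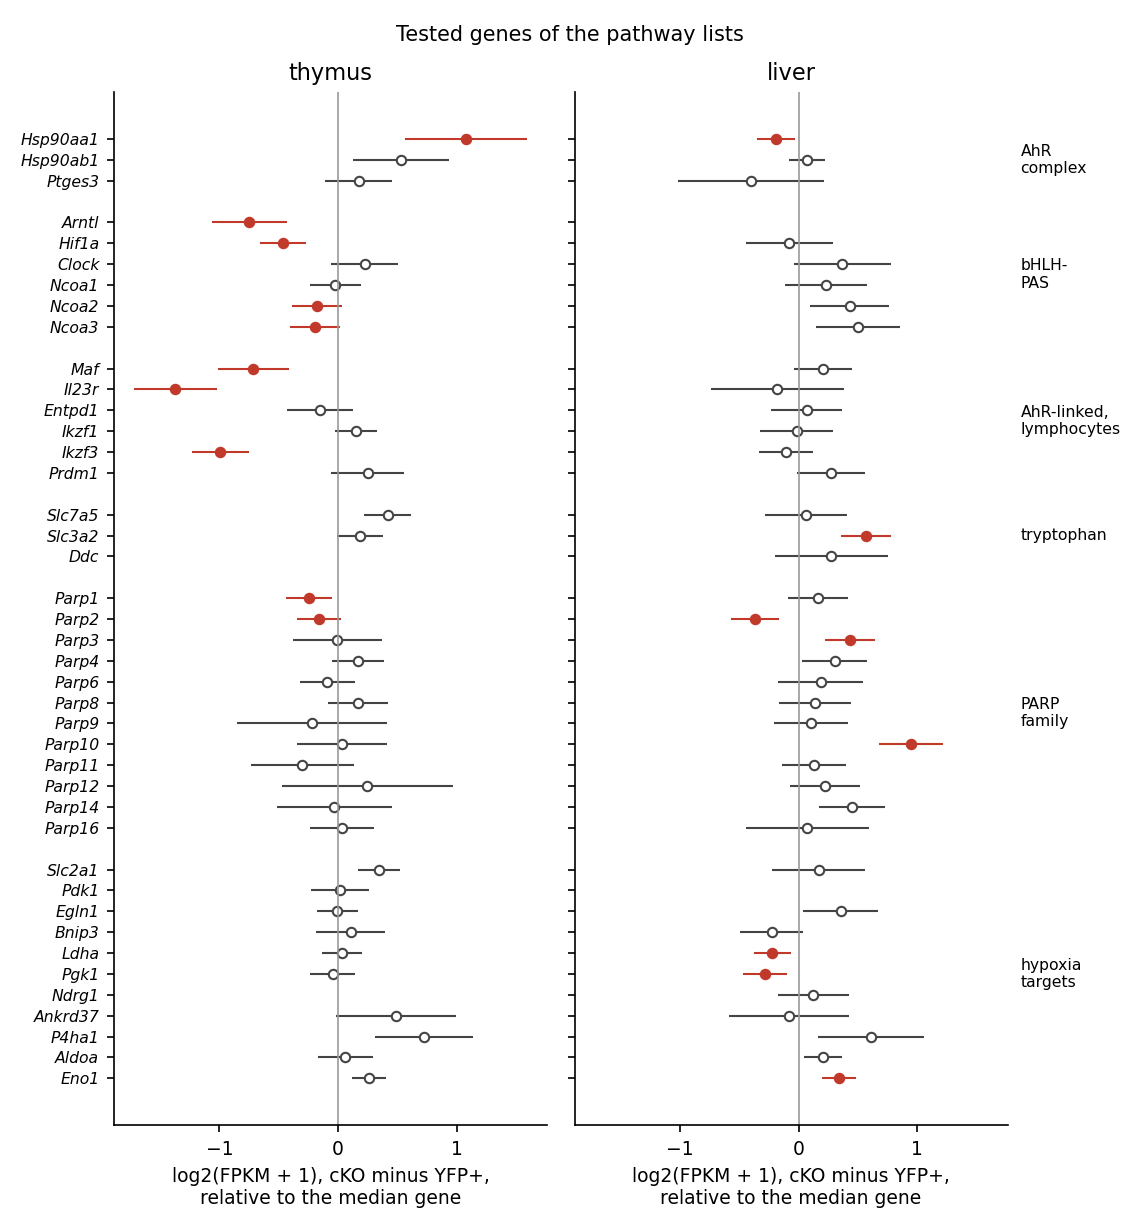
Difference of cKO minus YFP+ in log2(FPKM + 1), relative to the median gene of the tissue, for each tested gene of the pathway lists; bars are 95% intervals of single genes from limma, and filled red points passed an adjusted p of 0.05 (tested on the unshifted difference). Il23r, Ikzf3 and Maf lie at -1.37 to -0.71 in the thymus, and in the liver Parp10 lies at 0.95.

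The genes whose pattern was most like that of Ahr were ranked by Pearson r across the 12 libraries, on log2(FPKM + 1) centred within each tissue, over 8371 genes. The libraries share their groups, so r mostly reflects the difference between cKO and YFP+, and it is a description. Tgfbr3, the TGF-beta co-receptor betaglycan, came first (r = 0.996 over 12 libraries, 0.999 within the thymus and 0.951 within the liver). It was at 0.656, 0.859 and 0.994 FPKM in thymus cKO and 5.724, 4.889 and 5.575 in thymus YFP+, and at 1.394, 1.544 and 1.452 in liver cKO and 1.773, 2.579 and 2.145 in liver YFP+. Its groups did not overlap in either tissue. Next came Tex2 (r = 0.986), D14Ertd449e (0.983), the Ras GTPase-activating protein gene Rasa1 (0.983) and the phospholipid flippase gene Atp8a2 (0.98). Within the liver alone these 4 ranged from 0.41 for D14Ertd449e to 0.863 for Rasa1. Least like Ahr were Klra7 (r = -0.991) and Klra18 (-0.986), genes of the Ly49 NK receptor family, whose members share reads, so that the level of each is uncertain. Klra7 was at 246 ± 19.4 FPKM in cKO and 30.3 ± 2.41 in YFP+ in the thymus, and at 168 ± 2.42 in cKO and 112 ± 9.90 in YFP+ in the liver.

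Among the partners, Arnt had an r with Ahr of 0.739 over the 12 libraries (0.904 within the thymus and -0.155 within the liver). Tiparp had an r of -0.254 over the 12 libraries, made up of -0.724 within the thymus and 0.893 within the liver.

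**Figure D4:**
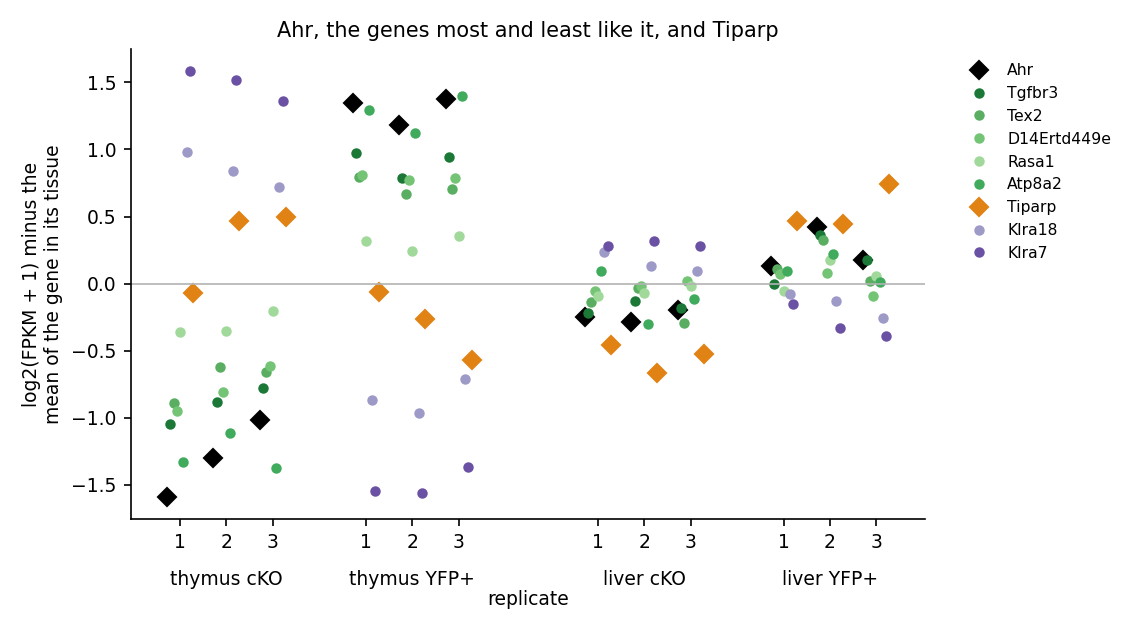
Log2(FPKM + 1) minus the mean of the gene in its tissue (vertical axis) in each of the 12 libraries, for Ahr (black diamonds), the 5 genes most like it (green), the 2 least like it (purple) and Tiparp (orange diamonds). In the liver Tiparp lies on the same side of 0 as Ahr in all 6 libraries, and in the thymus on the opposite side in all but cKO replicate 1.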

How the data were processed

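The authors deposited FPKM for each tissue in a table of its own. TopHat2 (2.8.0 as given), Cufflinks 2.1.1 and mm9 are named per the submitters' processing notes; other steps and strand use are not given in the sources used here. FPKM are relative to the mapped total, so abundant RNA in a library lowers its other values, and reads of overlapping or near-identical genes cannot be told apart. Per the labels' protocols, 10 ng of total RNA was amplified with a SMARTer kit before TruSeq or ThruPLEX library preparation, and which library had which kit is not given there.

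Columns were matched to titles, with 0 left unmapped. The main test was limma 3.58.1 (R 4.3.3; trended variance) on log2(FPKM + 1), per tissue, on genes whose mean reached 1 FPKM, with Benjamini-Hochberg adjustment over all tested genes at 0.05, two-sided, and it was tested on simulated data. The filter mean was taken over both groups of a tissue, so a gene could pass through its higher group alone. The members, lists and tests were chosen with earlier results of these data known. The text names, per tissue and list, up to 4 called genes whose groups do not overlap, by size, plus Hif1a, Hsp90ab1, Cyp1a1, Cyp1b1, Nqo1, Il22, Slc7a5, Rag2 and the 5 genes most and 2 least like Ahr. Fosb, Hspa1a, Gpr15, Il1r1 and the cell type markers given by name were chosen after their values were seen. A few genes are not reported here and were left out of the lists, whatever their values, though not out of the fits. Low values (0.015 to 0.1 FPKM) had modal ratios of 0.895 to 1.09 to cKO replicate 1 of the tissue, and absolute depth is unknown. Libraries of a group correlated at 0.972 to 0.991 (Pearson r across genes). Alternatives were a pseudocount of 0.1, other filters, median-ratio scaling, array weights, a replicate block and leaving out each library. Promoter windows came from RefSeq (GRCm38.p6); 3 of 4 members matched.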

Additional observations from a re-analysis of the deposited data

Results flagged for a closer look

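These named genes had cKO and YFP+ libraries that did not overlap in either tissue, with opposite directions in thymus and liver. Fosb lay at 2.64 in the thymus and -1.54 in the liver (log2 difference of cKO minus YFP+ relative to the median gene; adjusted p = 0.00705 and 0.000366 in limma). Hsp90aa1 lay at 1.08 in the thymus and -0.19 in the liver. Ncoa2 lay at -0.18 in the thymus and 0.43 in the liver, and Ncoa3 at -0.19 in the thymus and 0.50 in the liver. These differences between the tissues were not tested, and neither Ncoa2 nor Ncoa3 passed in the liver (adjusted p = 0.137 and 0.0944 in limma; Ncoa3 passed with median-ratio scaling, at 0.0447, among alternatives of 0.0447 to 0.267). Of the 4 AhR genes none met this description, since the thymus groups of Tiparp overlapped.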

How the results depend on the processing

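The thymus count of 1429 called genes became 801 with no filter on low values, 789 with median-ratio scaling, 787 with a replicate block and 2798 with array weights. It was 2408, 645 and 558 without cKO replicate 1, 2 and 3, and 596, 634 and 472 without YFP+ replicate 1, 2 and 3. Median-ratio scaling also changed the split, to 367 higher and 422 lower against 240 and 1189 as reported, and in the liver to 1003 and 1058 against 718 and 1889. The liver count of 2607 became 3940 with array weights and 1539 to 2640 with 1 library left out, the lowest without YFP+ replicate 2 (1623 and 1644 without cKO replicate 1 and 2). Of the pathway lists together, 16 thymus genes passed with array weights and 5 to 15 with 1 library left out, against 10 as reported; 14 liver genes passed with no filter, 13 at a mean of at least 0.1 FPKM and 5 to 9 with 1 library left out, against 8. The thymus difference of Ahr was -3.15 with a pseudocount of 0.1, and that of Arnt -0.27, or -0.34 with no filter. The liver difference of Ahr was -0.49 with no filter, -0.41 with median-ratio scaling and -0.38 with a replicate block, and its call was lost in each; with 1 library left out it was -0.44 to -0.30. Replicate numbers do not say whether the samples were paired. Deviations of same-numbered libraries correlated at -0.0634 to 0.0659, and those of differently numbered libraries at -0.113 to 0.11. These values cannot show whether samples were paired. The block lowered the liver count to 2214, and with it Ncoa2, Ncoa3 and Parp2 no longer passed in the thymus (adjusted p = 0.0752, 0.0796 and 0.0619), nor Eno1 and Parp3 in the liver (0.0824 and 0.0653). Tiparp in the liver was called under every alternative run, and Arnt under none. Depth is unknown, and levels under about 1 FPKM were not tested.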
